A study of Rattus norvegicus with 17 samples.

Results

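Genes that build and remodel the extracellular matrix are described here across the vessels of a rat arteriovenous fistula: Col1a2, Pcolce, Timp1 and Ccn2. They were chosen by symbol, and every probe with a deposited normalized value whose accession maps to one of the symbols was kept. This gave 5 probes of the 9879 measured, for 4 of the 2878 genes with a symbol. Col1a2 has probes A_43_P12783 and A_44_P458851, and the others have 1 probe each: A_42_P843394 for Pcolce, A_44_P461154 for Timp1 and A_42_P484738 for Ccn2.

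Fibrillar collagen is secreted as procollagen, and a protease cuts off its terminal propeptides before the molecules assemble into fibrils. Col1a2 encodes the alpha 2 chain of type I collagen, and Pcolce encodes an enhancer that binds procollagen and speeds the removal of its carboxy-terminal propeptide. Timp1 encodes a secreted inhibitor of matrix metalloproteinases, the enzymes that degrade collagen. Ccn2, also called connective tissue growth factor, is a secreted matricellular protein known to be induced by TGF-beta and by mechanical load. Neointimal hyperplasia (NIH), the thickening of the inner vessel wall that narrows fistulas used for dialysis, is rich in such matrix.

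RNA came from luminal cells that the labels call vascular endothelium, laser-captured 13 to 14 days after surgery and hybridized to 17 single-colour arrays. The NIH vein (n = 5) is superficial epigastric vein with arterial flow and neointimal hyperplasia after fistula surgery. The stenotic side branch (n = 3) has arterial flow and stenosis after fistula surgery, and the series' description places it in side branches of that vein. The venous-flow vein (n = 6) is epigastric vein with venous flow and no pathology, for which the labels name ligation surgery. The femoral artery (n = 3) is common femoral artery with arterial flow and no pathology after fistula surgery. All fistula operations also included a ligation of the vein, beyond which venous flow was kept. The labels used here state no strain, sex or age. Each RNA pooled 10 captures, and the study used 6 rats. Since 17 regions came from 6 rats, some arrays share a rat, but the labels do not tie arrays to rats, so p-values over arrays are too small where they do. In NIH vein or stenotic side branch against the venous-flow vein, the operation the labels name, arterial flow and pathology cannot be told apart. In femoral artery against the venous-flow vein, operation, flow and vessel cannot be told apart. In NIH vein or stenotic side branch against femoral artery, vessel and pathology cannot be told apart. Between the stenotic side branch and NIH vein, the site in the vein and the kind of pathology cannot be told apart. In such captured material, fewer cells of a type and less RNA per cell cannot be told apart.

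The deposited data exist as scanner output for each array and as a normalized value table, and these forms disagree on which sample is which. The 5 NIH vein arrays carry the same label in both. Each of the other 12 scanner outputs matched, at a rank correlation of 1, the table column of a sample from another group. Values below follow the scanner output unless the value table is named, and NIH vein against all the other 12 arrays is the 1 comparison whose grouping is the same in both. On 11 of those 12 arrays each spot's background is the average of the backgrounds of 2 other arrays (within 0.001 intensity units). All NIH vein arrays and stenotic side branch 1 have a background of their own. By the scanner output's labels, a filled background thus cannot be told apart from the group in NIH vein against the venous-flow vein or femoral artery. In NIH vein against the other 12 arrays the same holds but for stenotic side branch 1. With no background correction at all, the Ccn2 difference between NIH vein and the other 12 arrays was 1.64 (adjusted p = 0.0628) and that of Col1a2 was 2.05 (0.437, limma). On the 11 arrays, 92.7% to 100% of the gene spots without a table value have signals that are such averages too. No signal of the 5 probes was filled in this way. Levels are log2 values whose floor, set by the background correction, is 5.64 and whose median is 6.12. Of 16 endothelial marker genes, Kdr alone was measured with a symbol. Its level on a linear scale, where the floor is 50, was 56.9 to 479 over the arrays. Pecam1, Cdh5, Vwf and the others have no probe with a symbol among the values. The labelled cell type could therefore be checked against 1 gene only.

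Among differences between groups, 3 of 28 passed an adjusted p under 0.05 in the scanner output and 1 of 28 in the value table, over 4 genes and 7 comparisons, and none passed in both. The 3 calls came from the comparisons of NIH vein and of the stenotic side branch with femoral artery, where 2.32% and 1.86% of all probes were called, and the value table's call from stenotic side branch minus NIH vein, where 0.283% were. Col1a2 was higher in NIH vein than in femoral artery by 4.28 ± 0.74 on the log2 scale (SE), and higher in the stenotic side branch than in femoral artery by 4.39 ± 0.83. Pcolce was higher in the stenotic side branch than in femoral artery by 2.50 ± 0.56. In the value table, Ccn2 was lower in the stenotic side branch, with a difference from NIH vein of -2.90 ± 0.54. Ccn2 in NIH vein against the other 12 arrays differed by 1.83 ± 0.36 in the scanner output and 2.09 ± 0.43 in the value table and missed the threshold in each (adjusted p of 0.0635 and 0.0829, limma).

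**Figure D1:**
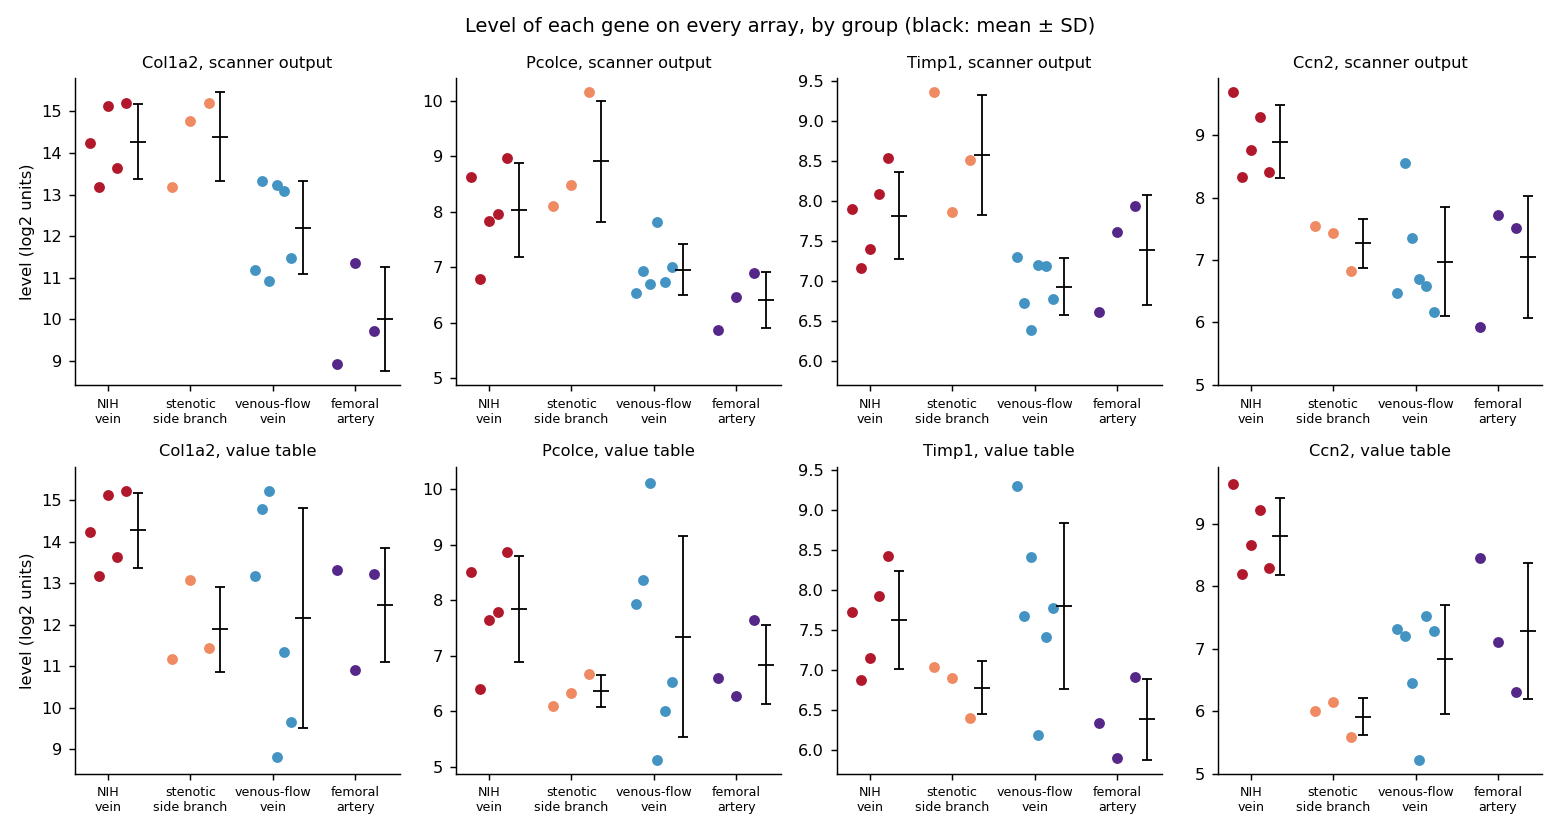
Level of each gene on every array (log2 units) by group, with the scanner output in the upper row and the value table in the lower; points are arrays and black bars are the mean ± SD. Ccn2 lies between 8.33 and 9.69 in NIH vein in the scanner output, while the order of the other 3 groups differs between the rows.

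Col1a2, the collagen chain itself, spanned a wide range, and its raw signal ran from 191 to 46029.7 intensity units over the arrays. In NIH vein its log2 level was 14.23, 13.18, 15.12, 13.64 and 15.21 in arrays 1 to 5. In the stenotic side branch it was 13.18, 14.78 and 15.21. Both groups with pathology occupied the same range, and their means differed by 0.11 ± 0.74 (adjusted p = 1, limma). In the venous-flow vein the lowest level was 10.92, the median 12.27 and the highest 13.33. In femoral artery it was 8.91, 11.36 and 9.72. Every NIH vein and every stenotic array lay above every femoral artery array, which holds for 9.32% and 15.8% of all probes.

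The group means of Col1a2 were 14.39 ± 1.07 (SD, n = 3) in the stenotic side branch, 14.28 ± 0.89 (n = 5) in NIH vein, 12.20 ± 1.12 (n = 6) in the venous-flow vein and 9.99 ± 1.25 (n = 3) in femoral artery. No step between neighbours in that order passed the test: NIH vein exceeded the venous-flow vein by 2.07 ± 0.61 (adjusted p = 0.159), and femoral artery lay below the venous-flow vein with a difference of -2.21 ± 0.72 (adjusted p = 0.863, limma). In the latter comparison 0% of probes were called in either form, with 486 at an unadjusted p under 0.05 in the scanner output and 159 in the value table. The distance to femoral artery from NIH vein was 19.5-fold (adjusted p = 0.016) and from the stenotic side branch 21.0-fold (adjusted p = 0.0243, limma). In these comparisons 2.32% and 1.86% of all probes were called. The first call was lost without femoral artery 1 (adjusted p = 0.133) or 3 (0.0597), and the second without stenotic side branch 2 (0.0747) or 3 (0.11) or femoral artery 1 (0.117) or 3 (0.059). With the value table's labels the differences were 1.79 ± 1.26 (adjusted p = 0.616) and -0.59 ± 1.41 (adjusted p = 1, limma). For these, 0% and 0.192% of probes were called in the value table, with 1064 at an unadjusted p under 0.05 in the first. That table gave 12.48 ± 1.37 in femoral artery, 11.90 ± 1.03 in the stenotic side branch and 12.16 ± 2.65 in the venous-flow vein, beside 14.27 ± 0.90 in NIH vein. Against the other 12 arrays together, NIH vein exceeded by 2.08 ± 0.87 in the scanner output and 2.10 ± 0.87 in the value table (adjusted p of 0.367 and 0.356). All 5 NIH vein arrays lay above the median of the other 12, and 7 of those 12 lay below the lowest NIH vein array. An exact permutation test of that difference of means over all 6188 splits, 2-sided, gave p = 0.033 in both forms before any adjustment for the choice of genes.

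The second Col1a2 probe was dim and did not pass the test in any comparison. Its group means ran from 5.96 ± 0.14 in femoral artery to 6.54 ± 0.47 in the stenotic side branch, within 1 log2 unit of the floor. Over the 17 arrays its level correlated with that of the bright probe at r = 0.62 (Spearman rho = 0.77). The probes therefore cannot be compared in the size of a difference, and Col1a2 stands for the bright probe in what follows.

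Pcolce, the procollagen processing enhancer, also had its highest mean in the stenotic side branch in the scanner output. Its level there was 8.10, 8.48 and 10.15. In NIH vein it was 8.62, 6.78, 7.83, 7.96 and 8.96. In the venous-flow vein it ran from 6.54 to 7.82 with a median of 6.83. In femoral artery it was 5.87, 6.47 and 6.89, the lowest near the floor. The 3 stenotic arrays lay above all venous-flow arrays, which holds for 7% of probes, and above all femoral artery arrays, which holds for 15.8%. The NIH vein arrays overlapped the venous-flow vein.

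Pcolce means were 8.91 ± 1.09 (SD, n = 3) in the stenotic side branch, 8.03 ± 0.84 (n = 5) in NIH vein, 6.95 ± 0.46 (n = 6) in the venous-flow vein and 6.41 ± 0.51 (n = 3) in femoral artery. No step between neighbours passed the test, with differences of 0.88 ± 0.50 and 1.08 ± 0.41 on the log2 scale for the first steps and of -0.54 ± 0.48 for femoral artery minus venous-flow vein. The stenotic side branch exceeded femoral artery 5.65-fold (adjusted p = 0.0367), and the venous-flow vein 3.88-fold without passing (adjusted p = 0.0819, limma). The call against femoral artery was kept without stenotic side branch 1 and lost without any other 1 array of the 2 groups, at adjusted p-values of 0.0596 to 0.185. In the value table the same differences were -0.47 ± 0.98 and -0.98 ± 0.85. Its group means there ran from 6.37 ± 0.29 in the stenotic side branch to 7.84 ± 0.95 in NIH vein. NIH vein exceeded the other 12 arrays by 0.72 ± 0.55 (adjusted p = 0.655) and by 0.87 ± 0.63 in the value table (0.628), with exact permutation p-values of 0.243 and 0.218.

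Timp1, the metalloproteinase inhibitor, had no difference past the threshold in either form. In NIH vein its level was 7.90, 7.17, 7.40, 8.09 and 8.54. In the stenotic side branch it was 9.36, 7.86 and 8.52. In the venous-flow vein it ran from 6.39 to 7.30 with a median of 6.99, and in femoral artery it was 6.62, 7.62 and 7.94. All stenotic arrays lay above all venous-flow arrays, which holds for 7% of probes, and the femoral artery overlapped each other group.

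Timp1 means were 8.58 ± 0.75 (SD, n = 3) in the stenotic side branch, 7.82 ± 0.55 (n = 5) in NIH vein, 7.39 ± 0.69 (n = 3) in femoral artery and 6.93 ± 0.35 (n = 6) in the venous-flow vein. The widest difference, stenotic side branch minus venous-flow vein, was 1.65 ± 0.37 and missed the threshold (adjusted p = 0.0558, limma), in a comparison where 0.405% of probes were called in the scanner output and 0.172% in the value table. With 1 array left out at a time the adjusted p ran from 0.0467, without stenotic side branch 2 and the only one to pass, to 0.263 without stenotic side branch 3. The value table turned its direction, to -1.01 ± 0.51 (adjusted p = 0.819). NIH vein exceeded the other 12 arrays by 0.36 ± 0.40 in the scanner output and 0.44 ± 0.46 in the value table (adjusted p of 0.772 and 0.755), with exact permutation p-values of 0.404 and 0.377.

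Ccn2, the matricellular growth factor, followed another order. Its level in NIH vein was 9.69, 8.33, 8.77, 9.29 and 8.41. In the stenotic side branch it was 7.54, 7.44 and 6.82. In the venous-flow vein it was 6.48, 8.56, 7.36, 6.70, 6.58 and 6.17, and in femoral artery 5.93, 7.72 and 7.51. Of the 5 NIH vein arrays, 3 lay above every other array, and 11 of the other 12 lay below the lowest NIH vein array. The exception was the array that the scanner output labels venous-flow vein 2 and the value table femoral artery 1.

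Ccn2 averaged 8.90 ± 0.58 (SD, n = 5) in NIH vein, 7.27 ± 0.39 (n = 3) in the stenotic side branch, 7.05 ± 0.98 (n = 3) in femoral artery and 6.97 ± 0.87 (n = 6) in the venous-flow vein. The 3 lower groups differed from each other by 0.08 to 0.29, less than their SDs. NIH vein exceeded the other 12 arrays 3.56-fold in the scanner output and 4.26-fold in the value table, and Ccn2 ranked 16 of 9879 by p in each. In that comparison 0.132% of probes were called in the scanner output and 0.0911% in the value table, and Ccn2 was not among them. The exact permutation test of this difference gave p = 0.00097 in each form, where the smallest p it allows is 0.000323; this p is for a gene chosen with the results known and is not adjusted. Both forms hold the same scans, so they are not independent evidence. With 1 array left out at a time, the adjusted p ran from 0.0145 to 0.207 in the scanner output and from 0.0222 to 0.26 in the value table (limma). In each form it passed only without the exceptional array, which is singled out here because of its Ccn2 level, and was highest without NIH vein 4. Median scaling in place of quantile normalization gave a difference of 2.19 (adjusted p = 0.0127), and the replicate number as a block gave 1.83 (adjusted p = 0.262).

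Against single groups, Ccn2 in NIH vein exceeded the venous-flow vein by 1.92 ± 0.43 (adjusted p = 0.0902), where 0.0405% of probes were called in the scanner output and 0% in the value table (622 at an unadjusted p under 0.05), and femoral artery by 1.85 ± 0.52 (adjusted p = 0.0714, limma). Over left-out arrays the adjusted p of the first difference ran from 0.0197 to 0.251, passing without venous-flow vein 2 (0.0197) or 5 (0.0489) and highest without NIH vein 4. The stenotic side branch minus NIH vein was -1.63 ± 0.52 (adjusted p = 0.717), where 0.0911% of probes were called. In the value table the same comparison gave -2.90 ± 0.54, which is 7.44-fold lower in the stenotic side branch (adjusted p = 0.0373, limma), where 0.283% of probes were called. That call held without NIH vein 2 (adjusted p = 0.047) and was lost without any other 1 array of these groups, at adjusted p-values of 0.0645 to 0.169. Every stenotic array lay below every NIH vein array in both forms, which holds for 0.931% of probes in the scanner output and 4.87% in the value table. Value table levels of Ccn2 were 5.91 ± 0.30 in the stenotic side branch, 6.83 ± 0.87 in the venous-flow vein and 7.29 ± 1.08 in femoral artery, beside 8.80 ± 0.62 in NIH vein.

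**Figure D2:**
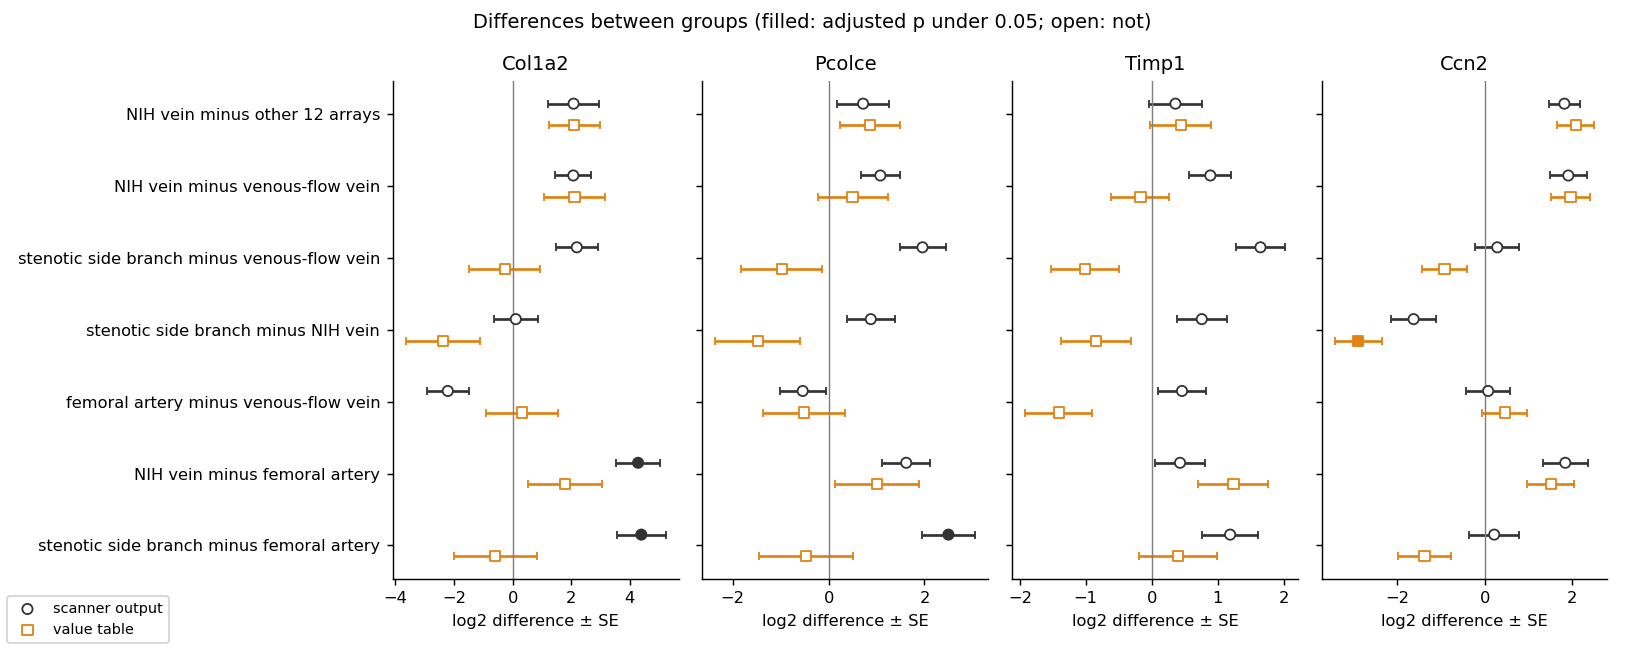
Difference between groups (log2 units) with its SE, for each gene and each of 7 comparisons; circles are the scanner output, squares the value table, and filled symbols have an adjusted p under 0.05. The forms lie close together for NIH vein minus the other 12 arrays, and on opposite sides of 0 for Pcolce and Timp1 in stenotic side branch minus venous-flow vein.

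The arrays outside NIH vein form 4 sets of 3 when both labels are crossed, a division chosen after the files were seen. Col1a2, Pcolce and Timp1 each had their highest mean of the 4 in the set labelled stenotic side branch by the scanner output and venous-flow vein by the value table, at 14.39, 8.91 and 8.58. Their means in the set labelled venous-flow vein by the scanner output and stenotic side branch by the value table were 11.91, 6.76 and 7.09. The lowest Col1a2 mean, 9.99, and the lowest Pcolce mean, 6.41, came from the set that the scanner output labels femoral artery and the value table venous-flow vein. The last set, femoral artery by the value table alone, had means of 12.49, 7.15 and 6.77. The files do not settle which vessel each set is. Ccn2 means of these sets were 7.27, 6.41, 7.05 and 7.54 in the order described, each below the lowest NIH vein array at 8.33.

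**Figure D3:**
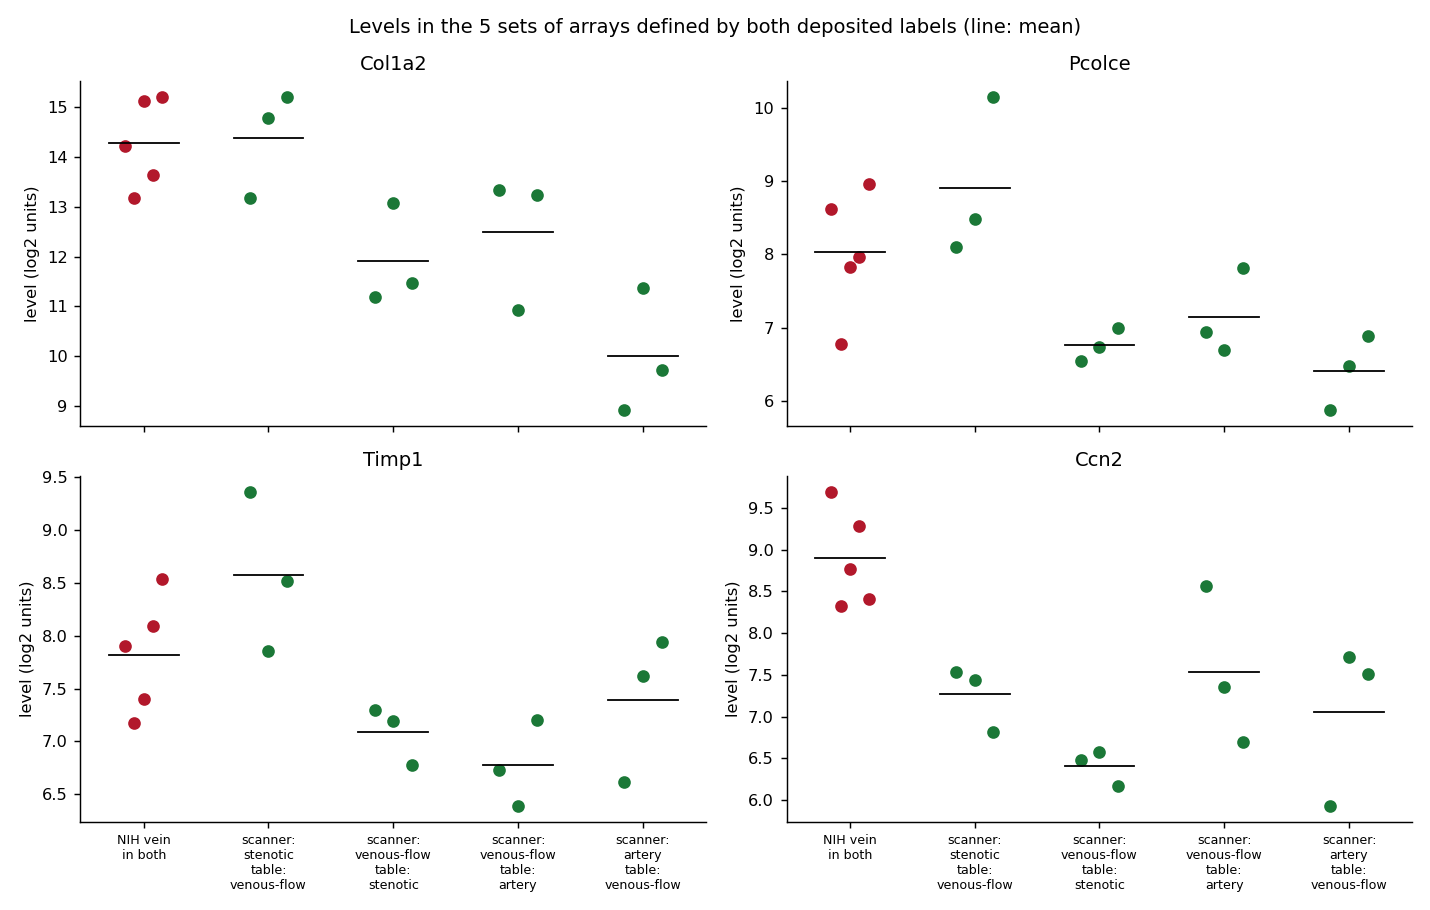
Scanner output level (log2 units) of each gene in the 5 sets of arrays defined by both labels; points are arrays and lines are means. Col1a2, Pcolce and Timp1 are high in 1 set outside NIH vein, while Ccn2 is below 8 in all arrays outside NIH vein except 1 at 8.56.

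Array-to-array spread was wide for the main probes of these genes beside that of all probes. The median level of all probes, 6.12, lies near the floor of 5.64, and the ranks were not matched for level. The SD of the dim Col1a2 probe exceeded that of 33.7% of probes in femoral artery and 79.9% in the venous-flow vein of the scanner output. The SD of Col1a2 within a group exceeded that of 91.6% to 96.9% of all probes in the 4 scanner output groups, and reached 2.65 in the venous-flow vein of the value table, above 99.7% of probes. Ccn2 had an SD above that of 73.8% of probes in the stenotic side branch and 93.7% in femoral artery. Timp1 in the venous-flow vein had an SD of 0.35, against a median of 0.19 over all probes.

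Some of the genes varied together across arrays. Over the 17 arrays, Col1a2 and Pcolce levels correlated at r = 0.81 (rho = 0.87), and 1.31% of the other 9878 probes correlated at least as strongly with Col1a2. Pcolce and Timp1 correlated at r = 0.70 (rho = 0.70), and Col1a2 and Timp1 at r = 0.49 (rho = 0.53). Such shares of probes were 8.91% to Pcolce and 0.921% to Timp1 for the first of these pairs. For the second they were 21.5% to Col1a2 and 10.1% to Timp1. Ccn2 correlated with Col1a2 at r = 0.53 (rho = 0.55), with Pcolce at 0.34 (rho = 0.45) and with Timp1 at 0.30 (rho = 0.42). Shares of probes with at least that r to Ccn2 were 8.71%, 22.2% and 24.7%, and to the other gene 18.1%, 34.4% and 25.6%. Without the NIH vein, over 12 arrays, r for Col1a2 and Pcolce was 0.82, and r for Col1a2 and Ccn2 was 0.29. Leaving out the 2 arrays farthest from the Col1a2 median gave r = 0.81 and 0.45 for these pairs. The points share arrays, normalization and possibly rats, and the 6 correlations are descriptions with no test.

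**Figure D4:**
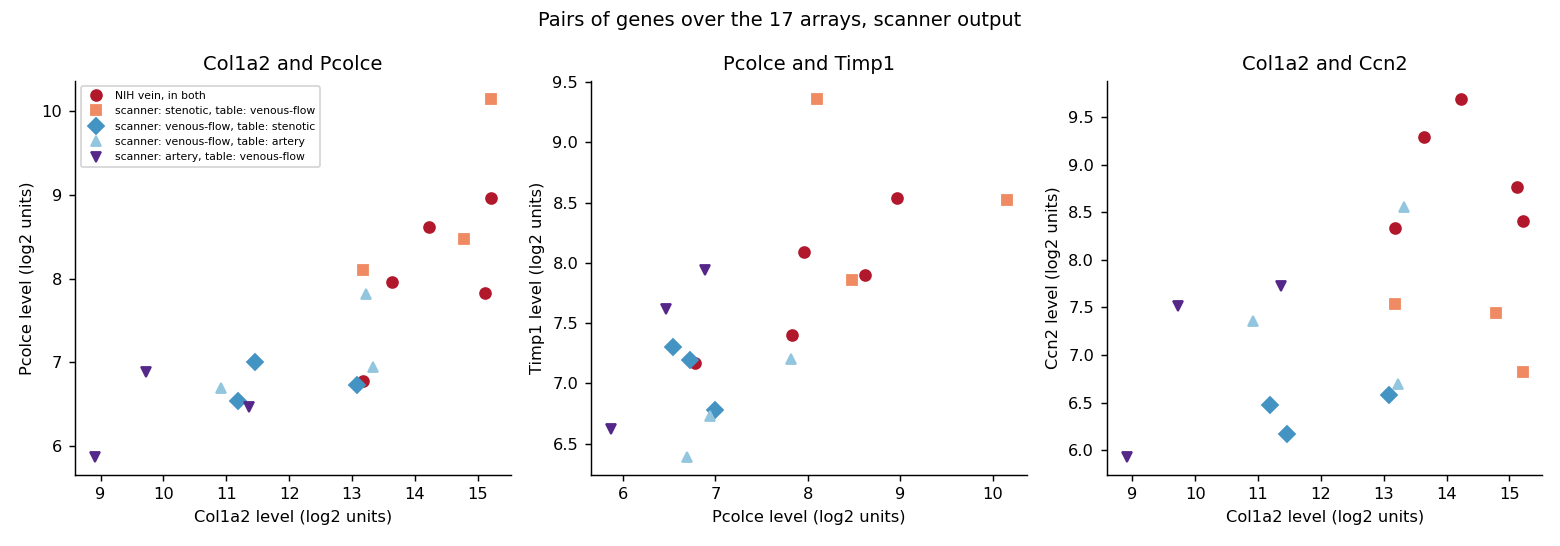
Levels (log2 units) of 3 pairs of genes, 1 point per array, with marks for the 5 sets of arrays. Col1a2 and Pcolce follow each other over the 17 arrays (r = 0.81), while the NIH vein arrays stand high in Ccn2 at Col1a2 levels that other arrays also reach.

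The genes with the most similar pattern over the 17 arrays were named for each. For Col1a2 they were Mmp14, a membrane-bound collagenase (r = 0.92), Sirpa, a receptor of myeloid cells (0.91), and Efnb1, an ephrin ligand (0.90). For Pcolce they were Scpep1, a carboxypeptidase (0.96), Prnp, the prion protein (0.95), and Qsox1, a sulfhydryl oxidase (0.95). For Timp1 they were Ddx5, an RNA helicase (0.87), and Mrpl23, a mitochondrial ribosomal protein (0.81). For Ccn2 they were Igfbp3, which binds insulin-like growth factors (0.90), Actn1, which cross-links actin filaments (0.89), and Cited2, a transcriptional co-regulator (0.85). In the value table, which holds the same scans, each of these r lay between 0.82 and 0.95. These were the highest of 9878 correlations, so a high r was bound to be found.

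Promoters are shown for Col1a2 and Ccn2, which of the 4 genes had the widest differences between NIH vein and the other arrays. The sequences are the 250 bases upstream of the RefSeq start on build GRCr8, at chr4:33518307-33518556 on the plus strand and chr1:22624615-22624864 on the minus strand. Capitals mark the TATA box (TATAAA), the SMAD core (CAGAC), the TEAD core (GGAATG) and the CCAAT box, each on either strand. Thus GTCTG is the SMAD core on the opposite strand, as ATTGG is for the CCAAT box. The motifs were chosen after the sequences and the levels had been seen.
Col1a2: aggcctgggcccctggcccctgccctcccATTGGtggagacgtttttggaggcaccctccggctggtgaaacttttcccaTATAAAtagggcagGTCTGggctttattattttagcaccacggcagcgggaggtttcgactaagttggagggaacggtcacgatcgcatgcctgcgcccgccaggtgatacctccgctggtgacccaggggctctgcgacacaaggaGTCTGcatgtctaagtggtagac
Ccn2: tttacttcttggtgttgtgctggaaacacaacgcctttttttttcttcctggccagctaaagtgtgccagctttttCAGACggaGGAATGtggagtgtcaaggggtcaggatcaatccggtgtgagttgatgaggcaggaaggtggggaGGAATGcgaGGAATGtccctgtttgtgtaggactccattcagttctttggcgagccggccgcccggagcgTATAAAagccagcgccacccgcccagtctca

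The Ccn2 window holds 3 copies of GGAATG, starting at -166, -101 and -92 from the start, 1 CAGAC at -174 and 1 TATAAA at -31. At least 1 GGAATG is in 12.1% of 33469 rat promoter windows, CAGAC in 42.9%, TATAAA in 12.9% and CCAAT in 34.0%. The Col1a2 window holds 2 matches to CAGAC, at -156 and -23, 1 TATAAA at -170, 1 CCAAT at -221 and no GGAATG. Of the genes not shown, Timp1 has 1 GGAATG and Pcolce has none of these 4 motifs. GGGCGG, in 30.5% of windows, has 2 matches in Ccn2 and 1 each in Pcolce and Timp1, and TGANTCA, in 6.3%, has none in any of the 4. These matches describe letters and show no binding.

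Other matrix genes were counted from 5 lists. Of 35 genes of fibrillar collagen and its processing, 14 were measured, and of these 10 had a higher mean in NIH vein than in the other 12 arrays, with a median difference of 0.12 against 0.01 over all probes. Of 17 measured of 31 matricellular and elastic fibre genes, 14 had a higher mean, with a median of 0.27. Of 9 measured of 28 matrix proteases, 6 had a higher mean (median 0.17), and of 5 measured of 9 protease inhibitors, 3 had (median 0.28). Basement membrane had 1 measured gene of 23, Agrn. No gene of these lists was called in this comparison in either form (limma). At an unadjusted p under 0.05 in the scanner output, 6 of the 17 matricellular genes were higher, Ccn2 among them, and 7.91% of all probes were. In the lists of fibrillar collagen, proteases and inhibitors 1 gene each was higher at that p, and in basement membrane 0. In the fibrillar collagen list 1 gene was lower.

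Genes beside the 4 were named by smallest p in each list. In NIH vein against the other 12 arrays, Ctsl, a lysosomal cathepsin, differed by 2.14 ± 0.63 (adjusted p = 0.275) and Fbn1, the fibrillin of elastic fibres, by 1.01 ± 0.39 (0.366). Fmod, a collagen-binding proteoglycan, differed by -1.17 ± 0.47 (0.366, limma). These values stood on the same side of 0 in the value table, at 2.29, 1.15 and -1.42.

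For stenotic side branch minus venous-flow vein the lists turned with the labels. Of the 14 fibrillar collagen genes, 13 had a higher mean in the stenotic side branch in the scanner output (median 0.18 against 0.02 over all probes) and 2 in the value table (median -0.31 against -0.04). For the 9 proteases the counts were 8 (median 0.45) and 2 (median -0.26), for the 17 matricellular genes 11 (median 0.29) and 5 (median -0.12), and for the 5 inhibitors 3 (median 0.05) and 2 (median -0.35). No list gene was called in either form. Loxl1, a collagen and elastin cross-linking enzyme, differed by 1.58 ± 0.48 in the scanner output (adjusted p = 0.138) and -1.33 in the value table (0.819). Ctsb, another cathepsin, differed by 2.24 ± 0.60 (0.105) and -0.92 (0.893), and Fn1, fibronectin, by 2.38 ± 1.05 (0.268) and -2.14 (0.821, limma).

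**Figure D5:**
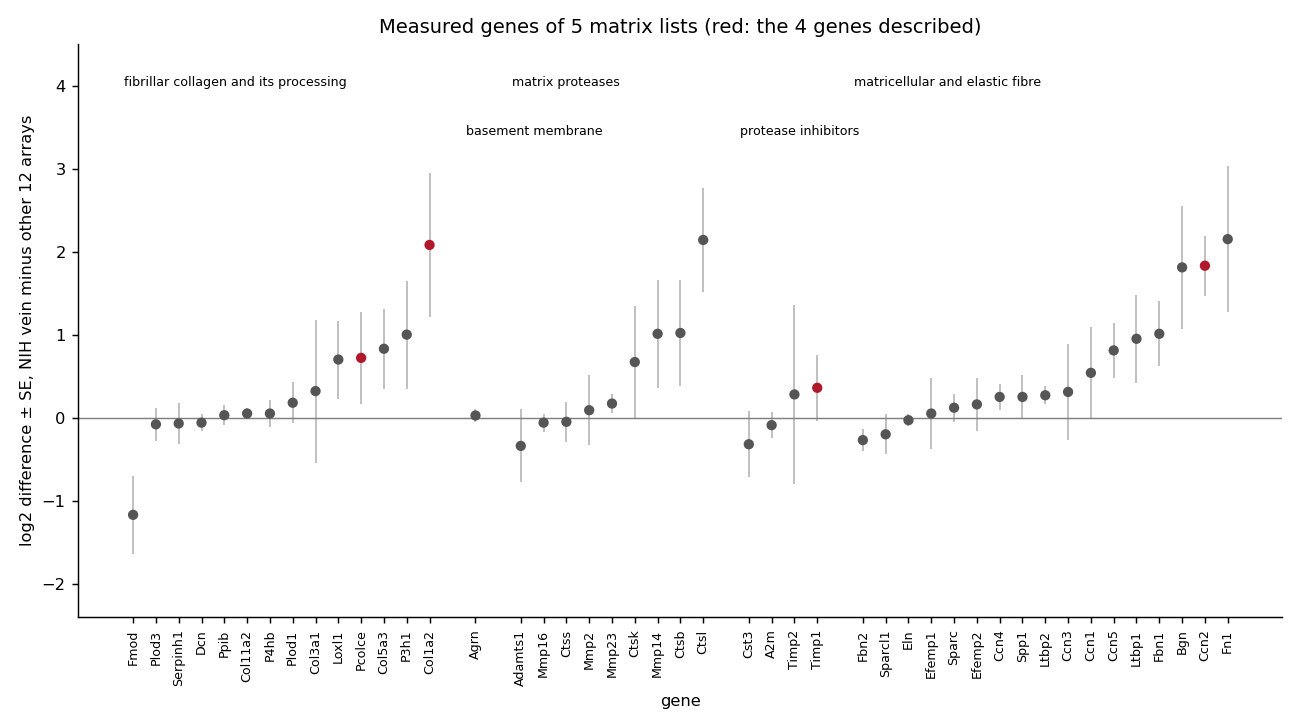
NIH vein minus the other 12 arrays (log2 difference ± SE, scanner output) for the measured genes of the 5 matrix lists except 1 that is not shown, with the 4 genes described here in red. No gene shown passed the adjusted threshold, and Ccn2 stands among the widest positive differences at 1.83.

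Markers of cell types moved with some of these values. Their levels are given on a linear scale, summed over the measured genes, and each gene has a floor of 50 in the scanner output. Kdr, the endothelial receptor for vascular endothelial growth factor, had a level of 158 to 479 in the stenotic side branch, 90.7 to 161 in NIH vein, 56.9 to 214 in the venous-flow vein and 58.7 to 78.4 in femoral artery. Its lowest levels in femoral artery and in the venous-flow vein lay close to that floor. Kdr was called in stenotic side branch minus femoral artery, as Col1a2 and Pcolce were, at a log2 difference of 1.95. In the value table the Kdr level was 56.1 to 187 in the stenotic side branch, 66.0 to 135 in NIH vein, 35.1 to 451 in the venous-flow vein and 33.4 to 133 in femoral artery, and it was called nowhere against femoral artery. Of 14 myeloid markers 7 were measured, and their summed level was 1770 to 5970 in the stenotic side branch against 694 to 1470 in the venous-flow vein, 747 to 1650 in NIH vein and 941 to 1110 in femoral artery. In the value table these levels were 520 to 718 in the stenotic side branch and 762 to 5780 in the venous-flow vein, so they turned with the labels as Pcolce and Timp1 did. Cd14, Csf1r and C1qa were within 0.5 log2 units of the floor on average. Of 11 fibroblast markers 4 were measured, and their sum was 413 to 3900 in NIH vein, 422 to 2230 in the stenotic side branch, 487 to 1660 in the venous-flow vein and 306 to 681 in femoral artery, with Dcn near the floor. With the value table's labels it was 313 to 3800, 405 to 746, 209 to 2120 and 387 to 1560 in the same order. Col3a1, also on the fibrillar collagen list, was the highest, with a NIH vein mean of 9.12 log2 units beside 6.80 for Thy1. Of 12 smooth muscle markers 4 were measured, at 2660 to 16500 in NIH vein, 3110 to 4500 in the stenotic side branch, 950 to 30900 in the venous-flow vein and 1220 to 3580 in femoral artery, with Tagln and Des near the floor. With the value table's labels the sum was 2560 to 16400, 3910 to 30800, 1120 to 4400 and 851 to 4720 in that order. It stood mostly for Tpm2, whose NIH vein mean was 12.57 log2 units beside 6.29 for Actg2, the next highest. Of 6 platelet and red cell markers 3 were measured, at 161 to 604 over the arrays, with Pf4 near the floor. The part of these cells in the levels of the 4 genes was not tested.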

How the data were processed

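Per the file headers, the deposited scanner output holds each spot's mean signal and local background as raw intensity. The deposited value table holds log2 values that are quantile normalized across arrays, as its sorted columns show. Per the labels, 50 ng of RNA per sample was amplified and labelled with Cy5; the sources used here do not name the software. Signal minus background was computed, because the deposited difference values of venous-flow vein 5 are another array's. After normexp correction (offset 50) and log2 transformation, the 10000 spots with a table value were quantile normalized, and spots of a probe were averaged (limma 3.58.1, R 4.3.3; Python 3.11.15, pandas 2.3.3, scipy 1.17.1, matplotlib 3.10.9). Median signal above background was 28.5 to 80.9 per array; precision is limited by the few arrays.

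One limma model with 4 group means gave 6 contrasts, and a model with 2 groups gave NIH vein minus the other 12 arrays. P-values are 2-sided with Benjamini-Hochberg adjustment over 9879 probes within a contrast; SDs are over arrays and SEs belong to contrasts. The fit was tested on simulated data. Symbols, chromosomes and promoters come from RefSeq tables. Named genes are the 4 genes, the 3 probes of highest r to each, and up to 3 genes of smallest p per list in 2 contrasts, of which some are given and some are not reported here. The members, lists and rules were chosen with earlier results of these data known. Same-numbered arrays did not pair: their correlations ran from -0.609 to 0.321 over 20 pairs. Alternatives changed background correction, offset, scaling, deposited form, features, a filter on dim probes, samples in the fit and the replicate block, and left out each array.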

Additional observations from a re-analysis of the deposited data

Results flagged for a closer look

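In 20 checks of a gene's level within a group of 5 or 6 arrays, 2 levels stood apart from the rest of their group, both on 1 array, and chance flags about 1 in 20 groups. It is the array that the scanner output labels venous-flow vein 4 and the value table femoral artery 3. There Pcolce was at 7.82 and the next highest venous-flow vein array at 7.0. The dim Col1a2 probe was at 6.97 there, and the next highest at 5.93.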

How the results depend on the processing

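Of the 28 differences in the scanner output, 3 were called, and none of these calls held under every alternative. The value table, which holds the same scans under other labels, ended or turned them: NIH vein minus femoral artery was 1.79 for Col1a2, and stenotic side branch minus femoral artery was -0.59 for Col1a2, -0.47 for Pcolce, -1.38 for Ccn2 and -0.49 for the dim Col1a2 probe. It also turned stenotic side branch minus venous-flow vein to -0.27 for Col1a2, -0.98 for Pcolce, -1.01 for Timp1, -0.92 for Ccn2 and -0.53 for the dim probe, stenotic side branch minus NIH vein to -2.38, -1.48, -0.84 and -0.65 for Col1a2, Pcolce, Timp1 and the dim probe (Ccn2, called there, was -2.90), NIH vein minus venous-flow vein for Timp1 to -0.17, and femoral artery minus venous-flow vein to 0.32 for Col1a2 and -1.41 for Timp1. Group levels of the 4 genes' main probes that moved by more than their SD were, in the value table, 11.90, 6.37, 6.78 and 5.91 in the stenotic side branch for Col1a2, Pcolce, Timp1 and Ccn2, 12.48 and 6.38 in femoral artery for Col1a2 and Timp1, 7.79 in the venous-flow vein for Timp1 and, with plain background subtraction, 5.89 in femoral artery for Pcolce. Levels of the dim probe that did were 5.14, 5.79 and 5.63 in the stenotic side branch, NIH vein and femoral artery of the value table and 5.79, 5.38 and 5.26 in NIH vein, venous-flow vein and femoral artery with subtraction. For the genes named as most similar in pattern, r in that table was within 0.01 of its scanner value.

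Median scaling brought Ccn2 past the threshold against the other 12 arrays (2.19, adjusted p = 0.0127) and the venous-flow vein (2.33, adjusted p = 0.0469), ended the calls against femoral artery at 4.13 (NIH vein, Col1a2), 3.72 (stenotic side branch, Col1a2) and 2.31 (Pcolce), and turned Col1a2 in stenotic side branch minus NIH vein to -0.41. An offset of 16 (2.01) and a test of probes above the median level (1.65) called Timp1 in stenotic side branch minus venous-flow vein, and the latter called Pcolce (1.62) and Ccn2 (1.85) in NIH vein minus femoral artery. A fit of only the compared groups ended the stenotic side branch calls against femoral artery at 4.39 (adjusted p = 0.112) and 2.50 (0.154). With no background correction the dim probe turned to 0.01 in femoral artery minus venous-flow vein, and the 3 calls held. Causes were not tested.

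The replicate number as a block ended those 3 calls at 3.96, 4.39 and 2.50 (adjusted p of 0.139, 0.0701 and 0.127), and turned Ccn2 to -0.05 in stenotic side branch minus venous-flow vein and to -0.27 in femoral artery minus venous-flow vein, with the dim probe at 0.03 in the latter. The numbers do not pair the arrays, and 7 of 20 same-number correlations exceeded 0.1. Under the block 0 probes were called for NIH vein against the other 12 arrays, the venous-flow vein and femoral artery (659, 961 and 1642 at an unadjusted p under 0.05), and 1 in each stenotic side branch comparison.

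Counts of called probes moved widely. From 13 for NIH vein minus the other 12 arrays they went to 5 with no background correction, 7 at offset 16, 31 with median scaling and 6 for probes above the median level. From 4 against the venous-flow vein they went to 16 with median scaling, 0 in the value table, 9 for probes above the median and 2 for only the compared groups. From 40 for stenotic side branch minus venous-flow vein they went to 87 with subtraction, 114 at offset 16, 5 with median scaling, 17 in the value table, 71 for probes above the median and 88 for only the compared groups. From 9 for stenotic side branch minus NIH vein they went to 3 with subtraction, offset 16 and median scaling, 28 in the value table and 0 for only the compared groups (274 at an unadjusted p under 0.05). From 229 for NIH vein minus femoral artery they went to 97 with no background correction, 344 at offset 16, 51 with median scaling, 0 in the value table and 652 for probes above the median. From 184 for stenotic side branch minus femoral artery they went to 1 with median scaling, 19 in the value table and 59 for only the compared groups. Median scaling changed the calls in NIH vein minus femoral artery from 154 higher and 75 lower to 48 and 3.

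Leaving out 1 array gave Ccn2 differences of 1.63 to 1.97 for NIH vein minus the other 12 arrays (1.88 to 2.25 in the value table, an alternative chosen after seeing the data, as was -3.05 to -2.69 for stenotic side branch minus NIH vein there) and 1.73 to 2.24 against the venous-flow vein. NIH vein minus femoral artery ran from 3.74 to 4.97 for Col1a2 and 1.35 to 1.93 for Pcolce, the latter with adjusted p-values of 0.0335 to 0.311, called without NIH vein 2. Stenotic side branch minus femoral artery ran from 3.85 to 5.08 for Col1a2, 1.88 to 2.90 for Pcolce and -0.35 to 0.55 for Ccn2, and minus venous-flow vein from 1.26 to 2.01 for Timp1. Stenotic side branch minus NIH vein ran from -0.30 to 0.72 for Col1a2 and -0.05 to 0.37 for the dim probe, and femoral artery minus venous-flow vein from -0.26 to 0.64 for Ccn2 and -0.18 to 0.08 for the dim probe. Counts of called probes ran from 3 to 26, 1 to 284, 8 to 132, 1 to 11, 0 to 546 and 1 to 533 in the order of the previous paragraph, and 0 in all for femoral artery minus venous-flow vein.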
